A study of Mus musculus with 14 samples.

Results

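The microRNAs (miRNAs) of the miR-106b-25 and miR-106a-363 clusters were followed over 14 one-colour mouse miRNA arrays. The members were chosen by name, 7 in all of the 1247 miRNAs on the array: mmu-miR-106b-5p, mmu-miR-93-5p and mmu-miR-25-3p of miR-106b-25, and mmu-miR-106a-5p, mmu-miR-18b-5p, mmu-miR-20b-5p and mmu-miR-363-3p of miR-106a-363 (mmu, for mouse, is left out below). Of these, 6 had a row of their own and 5 were detected on at least 1 array. The mice were male C57BL/6 animals of 6 to 8 weeks, sampled 12 h after gamma irradiation with 8 Gy or 0 Gy. In bone marrow, 5 pretreatment arms had 1 array at 8 Gy and 1 at 0 Gy: amifostine (10 mg/kg i.p., into the abdomen, 0.5 h before), CBLB502 (0.2 mg/kg i.p., 0.5 h before), nilestriol (150 mg/kg i.g., into the stomach, 48 h before), and phosphate-buffered saline (PBS) given i.p. or i.g. In hypothalamus, the amifostine and the PBS i.p. arm had both doses. Each array held the pooled RNA of 3 mice, so the spread between animals was not measured, and the arms served as replicates of the 8 minus 0 Gy difference, with p-values that measure only the spread between these pools. Amifostine is a radical-scavenging thiol prodrug, CBLB502 an engineered flagellin and agonist of Toll-like receptor 5, and nilestriol a long-acting oestrogen.

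The clusters are paralogs of miR-17-92, the cluster known for its role in proliferation and in blood cell development. Each is transcribed as 1 precursor RNA from which several hairpins are processed, and the strands with a miR-17 type seed or a miR-92 type seed repress, among others, the cell cycle inhibitor Cdkn1a and the pro-apoptotic gene Bcl2l11. The miR-106b-25 hairpins lie in an intron of Mcm7, a helicase subunit gene that E2F factors switch on as cells enter S phase, so they are made with the Mcm7 transcript. miR-106a-363 lies on the X chromosome and is expressed in embryonic stem cells and at a low level in most adult tissues of the mouse.

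The mature sequences are shown because the seed, which selects the targets, sorts the members across both clusters, and because they decide what the array could tell apart. All 7 were found in RefSeq (GRCm38.p6), and bases 2 to 8, the seed, are in capitals. The seed of miR-17-5p was shared by 4 members:
miR-106b-5p: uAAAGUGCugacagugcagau
miR-93-5p: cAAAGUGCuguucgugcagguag
miR-106a-5p: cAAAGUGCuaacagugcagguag
miR-20b-5p: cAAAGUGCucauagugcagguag
miR-17-5p: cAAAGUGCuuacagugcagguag
miR-20a-5p: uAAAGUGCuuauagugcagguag
The seed of miR-92a-3p was shared by 2 members:
miR-25-3p: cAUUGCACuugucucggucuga
miR-363-3p: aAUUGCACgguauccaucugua
miR-92a-3p: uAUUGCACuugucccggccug
The remaining member had the seed of miR-18a-5p:
miR-18b-5p: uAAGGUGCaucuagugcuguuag
miR-18a-5p: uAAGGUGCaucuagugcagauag
The 3 hairpins of miR-106b-25 span 498 bases of the minus strand of chromosome 5, at chr5:138165321-138165818, and all 3 lie inside Mcm7. In them miR-106b-5p occupies 138165787 to 138165807, miR-93-5p 138165574 to 138165596 and miR-25-3p 138165332 to 138165353. The 6 hairpins of miR-106a-363 span 875 bases of the minus strand of the X chromosome, at chrX:52741693-52742567. There miR-106a-5p occupies 52742541 to 52742563, miR-18b-5p 52742381 to 52742403, miR-20b-5p 52742159 to 52742181 and miR-363-3p 52741697 to 52741718. The cluster also encodes second copies of miR-19b-3p and miR-92a-3p, whose mature sequences are the same as those made by miR-17-92 on chromosome 14, so the array could not assign these to a locus.

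miR-106a-5p could not be measured apart from miR-17-5p. The 2 mature sequences differ at 1 of 23 positions, and the files annotate both probes of the miR-17-5p row, of 12 and 13 bases, with both miRNAs. The probes matched the 3′ end of either sequence with 0 mismatches. Both probes of miR-20b-5p matched their own target with 0 mismatches and miR-20a-5p with 1. The longer miR-17-5p probe and the 19-base probes of miR-20b-5p and miR-20a-5p are shown because cross-hybridization would act through these bases, and the base at which the miR-20b-5p and miR-20a-5p probes differ is in capitals:
miR-17-5p probe: ctacctgcactgt
miR-20b-5p probe: ctacctgcactatGagcac
miR-20a-5p probe: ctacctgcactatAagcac
The probes of miR-106b-5p differed from miR-17-5p and miR-106a-5p at 2 bases, and each of the probes of miR-93-5p, miR-25-3p, miR-363-3p and miR-18b-5p matched its own target with 0 mismatches. How far miR-20a-5p added to the miR-20b-5p signal was not tested.

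Scanner intensities were scaled within each array and set on a log2 scale, and all levels and differences below are on that scale unless an intensity is named. A bone marrow array detected 332 to 403 miRNAs and a hypothalamus array 478 to 582. The arrays lay on 3 slides, each scanned as a batch of its own: slide 1 held the PBS and CBLB502 arrays of bone marrow and the PBS arrays of hypothalamus, slide 2 the amifostine and nilestriol arrays of bone marrow, and slide 3 the amifostine arrays of hypothalamus. Amifostine and nilestriol therefore cannot be told apart from slide, whereas both doses of an arm shared a slide. The tissues matched their labels. Of 8 brain markers, 6 were undetected in bone marrow, miR-124-3p among them, and the summed signal of the list was 0.215 to 0.506 in bone marrow and 50.1 to 77.7 in hypothalamus. The summed signal of the 7 measured blood and bone marrow markers was 99.4 to 350 in bone marrow and 3.19 to 4.77 in hypothalamus, on the same scale. Of these 7, 6 passed as higher in bone marrow and miR-181a-5p as lower (-0.98 ± 0.27, adjusted p = 0.0316 with limma). Among the 6, miR-142-5p and miR-144-3p were undetected in hypothalamus, so they had to differ to be tested.

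The first question was where the members were expressed. All detected members of both clusters were higher in bone marrow than in hypothalamus. miR-25-3p had 871 to 2075 intensity units in the 10 bone marrow arrays (median 1418), against 101 to 111 in the 4 hypothalamus arrays (median 108). miR-93-5p had 839 to 1527 units in bone marrow (median 1114), against 130 to 138.4 in hypothalamus (median 136). miR-106b-5p had 757 to 1245 units in bone marrow (median 958), against 123 to 152 in hypothalamus (median 149). miR-20b-5p, the one member of miR-106a-363 detected on every array, had 466.1 to 690 units in bone marrow (median 585), against 41.6 to 50.8 in hypothalamus (median 48.7). For these 4 miRNAs the lowest bone marrow array lay above the highest hypothalamus array. The share of all miRNAs separated in this way was not counted, and 56% of the 530 tested passed between tissues in either direction.

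In the 8 arrays of the arms present in both tissues, bone marrow exceeded hypothalamus by 4.47 ± 0.29 for miR-25-3p, a 22.1-fold difference (log2 difference ± SE, here and below; limma, adjusted p = 0.000184). The difference was 4.27 ± 0.17 for miR-20b-5p (adjusted p = 3.41e-05 with limma), 3.79 ± 0.26 for miR-93-5p and 3.48 ± 0.26 for miR-106b-5p (adjusted p = 0.000248 and 0.000334 with limma). All 4 tested members passed in the higher direction, as did 15.8% of all 530 miRNAs tested; 40.2% passed as lower and 56% in either direction. The related cluster went the same way: 6 of 6 miR-17-92 members passed as higher in bone marrow, with differences from 3.47 to 4.42. Of the 6, miR-18a-5p and miR-19a-3p were undetected in hypothalamus and met the filter through bone marrow alone. They had to differ to be tested, so their calls are descriptions and their differences depend on the floor. The row shared by miR-17-5p and miR-106a-5p was also among the 6, at 3.61 ± 0.14. In hypothalamus its levels were -5.62 to -5.29 on the scale of all 14 arrays, where the floor was -5.62. The size of its difference therefore depends on the floor. In bulk tissue a difference in the number of cells of a type and in the RNA per cell cannot be told apart.

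The other members were at or under the detection limit of at least 1 tissue. miR-363-3p was detected on 5 of 10 bone marrow arrays, all of them at 0 Gy, and on 0 of 4 hypothalamus arrays, where it had -1.002 to 0.121 intensity units. It was not tested between tissues. At 0 Gy its mean over the matched arms was at least 2.18-fold higher in bone marrow. For each hypothalamus array the limit was the lowest signal among probes well above background. miR-18b-5p was detected on 0 of 14 arrays, with -2.01 to 0.776 units in bone marrow and -2.60 to -1.61 in hypothalamus. Its homologue miR-18a-5p, on probes of like length, was detected on all 10 bone marrow arrays. Of the 9 opposite strands of the clusters' hairpins, miR-106b-3p was detected on 10 of 10 bone marrow arrays and 0 of 4 hypothalamus arrays, at 4.68 to 7.94 units in bone marrow. miR-93-3p was detected on 2 arrays, miR-92a-2-5p on 3, and the other 6 on 0.

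**Figure D1:**
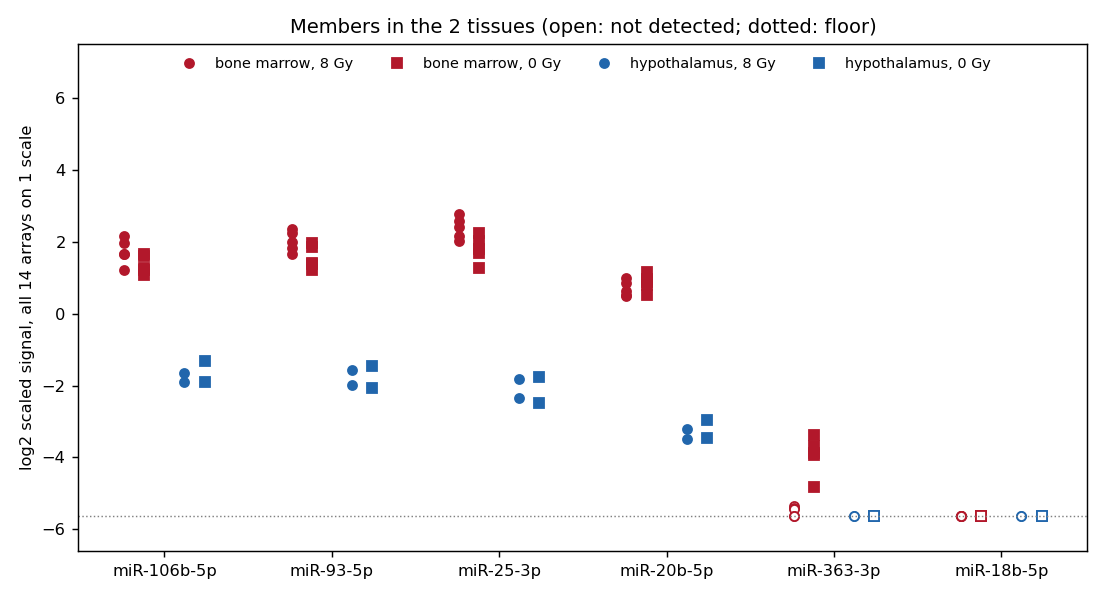
Log2 scaled signal (all 14 arrays on 1 scale, y axis) of the 6 members with a row of their own, with 10 bone marrow arrays left of 4 hypothalamus arrays and 8 Gy left of 0 Gy; each point is 1 pool of 3 mice, open points were not detected, and the dotted line is the floor. The 4 members detected everywhere lie higher in bone marrow, miR-363-3p is detected in bone marrow at 0 Gy and on no other array, and miR-18b-5p lies at the floor throughout.

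The main question was what 8 Gy did in bone marrow. The 3 tested members of miR-106b-25 were higher at 8 Gy in each of the 5 arms, and miR-25-3p passed the test, at 1.495-fold (0.58 ± 0.14). Within miR-106a-363, miR-363-3p was detected at 0 Gy in all 5 arms and at 8 Gy in none, and miR-20b-5p did not pass (-0.18 ± 0.11). Among all 371 miRNAs tested, 12.7% passed at an adjusted p of 0.05, 9.16% as higher and 3.5% as lower. The median difference was 0.44 for the 3 members of miR-106b-25, against 0.09 for all miRNAs tested.

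miR-25-3p, which shares the seed of miR-92a-3p, had levels at 8 Gy of 2.86 with amifostine, 2.35 with CBLB502, 2.35 with nilestriol, 2.81 with PBS i.p. and 2.58 with PBS i.g., against levels at 0 Gy of 2, 2, 1.4, 2.49 and 2.17 in the same order of arms. The dose groups overlapped, since the PBS i.p. array at 0 Gy lay above the 2 lowest arrays at 8 Gy, but within each arm the 8 Gy array was the higher. The differences were 0.87, 0.35, 0.95, 0.32 and 0.41, and their mean passed with an adjusted p of 0.0432 (limma). Both arms of slide 2 had larger differences than the 3 arms of slide 1. Within slide 1 the difference was 0.37 ± 0.07 (adjusted p = 0.0576 with limma), and within slide 2 it was 0.94 ± 0.09 (adjusted p = 0.176 with limma). The call was lost in 13 of 19 alternatives, with adjusted p values from 0.00204 to 0.349, although the difference stayed above 0 in all 19 (0.33 to 0.94).

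miR-93-5p, which has the miR-17 seed, had levels at 8 Gy of 2.45 with amifostine, 1.99 with CBLB502, 2.02 with nilestriol, 2.47 with PBS i.p. and 2.13 with PBS i.g. At 0 Gy they were 1.69, 1.61, 1.35, 2.21 and 2.01. All 5 differences were above 0, at 0.76, 0.38, 0.67, 0.26 and 0.12, and the mean of 0.44 ± 0.13 did not pass (adjusted p = 0.0732 with limma). It passed in 2 of 19 alternatives, with normexp background correction and with no scaling, and the adjusted p values ran from 0.0146 to 0.399. miR-106b-5p, with the same seed and the 5′-most hairpin of the cluster, had levels at 8 Gy of 2.27, 1.54, 1.86, 2.19 and 1.83 in these arms, against 1.54, 1.48, 1.20, 1.91 and 1.76 at 0 Gy. Its differences were 0.73, 0.06, 0.66, 0.28 and 0.07, so that the CBLB502 and PBS i.g. arms barely differed between doses. The mean of 0.36 ± 0.14 did not pass (adjusted p = 0.121 with limma; 95% interval 0.02 to 0.70). A difference above 0 in all 5 arms was seen for 20.2% of all miRNAs tested, and one below 0 in all 5 for 11.1%. The 2 probes of each member gave like means, 0.33 and 0.41 for miR-106b-5p, 0.44 and 0.44 for miR-93-5p, and 0.57 and 0.58 for miR-25-3p. The opposite strand miR-106b-3p, close to the floor at both doses, differed by -0.04 ± 0.09 (adjusted p = 0.723 with limma).

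**Figure D2:**
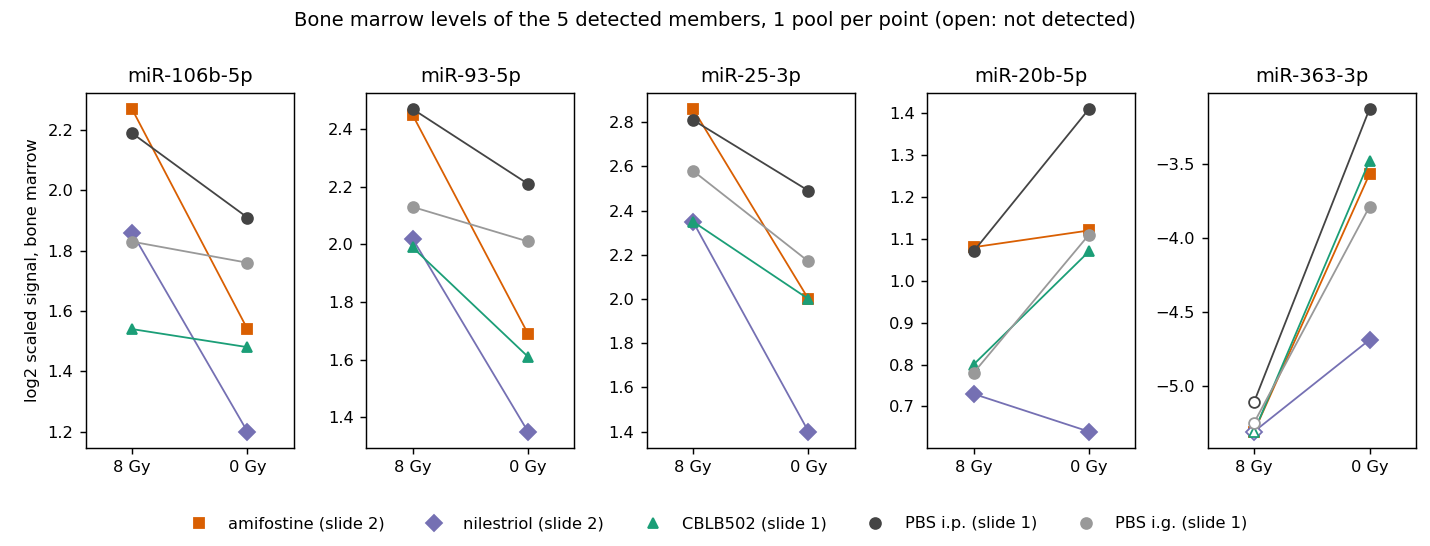
Log2 scaled signal (y axis, a separate range for each panel) of the 5 detected members in bone marrow at 8 Gy (left) and 0 Gy (right), with a line for each arm; each point is 1 pool of 3 mice and open points were not detected. The lines of miR-106b-5p, miR-93-5p and miR-25-3p are higher at 8 Gy in all 5 arms, and miR-363-3p is open at 8 Gy in all 5.

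miR-20b-5p, of the X-linked cluster but with the same seed as miR-106b-5p and miR-93-5p, had levels at 8 Gy of 1.08 with amifostine, 0.80 with CBLB502, 0.73 with nilestriol, 1.07 with PBS i.p. and 0.78 with PBS i.g., against 1.12, 1.07, 0.64, 1.41 and 1.11 at 0 Gy. The groups overlapped. It was lower at 8 Gy in 4 of 5 arms (-0.03, -0.27, -0.35 and -0.32 in amifostine, CBLB502, PBS i.p. and PBS i.g.) and 0.09 higher with nilestriol, and it did not pass (adjusted p = 0.269 with limma; 95% interval -0.44 to 0.08). Its arm differences and those of the miR-106b-25 members were highest on the same slide: the average of the 3 miR-106b-25 differences was 0.78 with amifostine and 0.76 with nilestriol, and 0.27, 0.29 and 0.20 with CBLB502, PBS i.p. and PBS i.g. (mean 0.46, SD 0.29, n = 5 arms). Taken relative to miR-20b-5p on the same arrays, that average was 0.82, 0.67, 0.54, 0.64 and 0.53 (mean 0.64, SD 0.12, n = 5 arms). The relative change needs no scaling factor and was above 0.5 in every arm. Such a ratio within an array bears on unequal change, not on which miRNA changed. What miR-20a-5p added to the miR-20b-5p signal was not tested.

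miR-363-3p, the last hairpin of its cluster, was a dim miRNA. At 8 Gy it had 5.73 intensity units with amifostine, 4.73 with CBLB502, 5.63 with nilestriol, 7.89 with PBS i.p. and 9.13 with PBS i.g., and at 0 Gy 26.0, 26.1, 12.7, 26.9 and 23.1 units. None of the 5 arrays at 8 Gy and all 5 at 0 Gy called it detected. The groups did not overlap, which was so in this direction for 3.5% of all miRNAs tested, and in the other direction for 5.93%. miR-363-3p met the filter on dim miRNAs through its 0 Gy arrays alone, so it had to differ between doses to be tested, and its detection on 5 arrays against 0 is a description. The limit at 8 Gy was the lowest signal among probes well above background, 13.2 to 18.8 units over the bone marrow arrays. Against it, the mean log2 level of miR-363-3p over the 5 arms was at least 1.31-fold lower at 8 Gy. With nilestriol the 0 Gy signal of 12.7 units lay under these limits, so no fall was bounded in that arm. The adjusted p of 0.0124 (limma) belongs to the fit with the floor and does not test this limit. That p is taken against values at 8 Gy that were not above background, 3 of the 5 raised to the floor. Because of the filter it is no separate support, and neither it nor a fitted difference gives a size or a rank. The measured means were -5.44 at 8 Gy and -3.73 at 0 Gy.

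**Figure D3:**
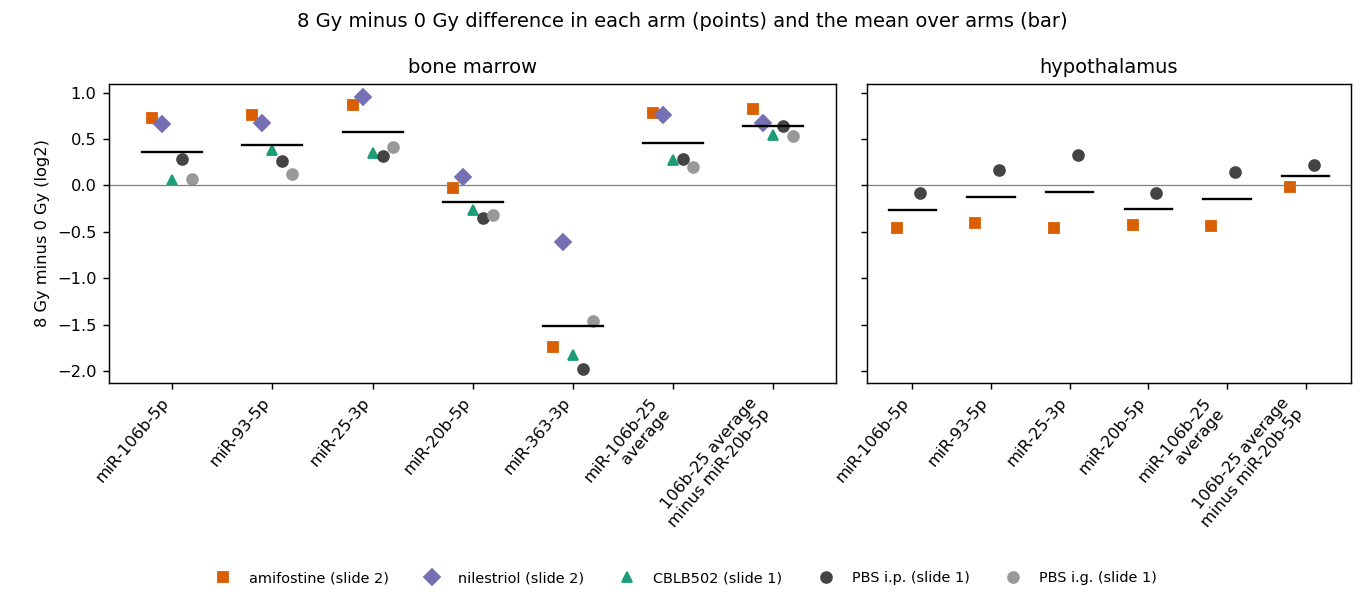
The 8 Gy minus 0 Gy difference (log2, y axis) of each member, of the miR-106b-25 average and of that average relative to miR-20b-5p, in bone marrow (5 arms) and hypothalamus (2 arms); points are arms, 1 array against 1, and bars are means over arms. In bone marrow the miR-106b-25 members lie above 0 in all 5 arms, highest on slide 2, and the average relative to miR-20b-5p spans 0.53 to 0.82; the points of miR-363-3p use 8 Gy values that were not detected and do not show a size.

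No single arm carried the direction of the miR-106b-25 differences, but the call of miR-25-3p rested on several. It did not pass when the PBS i.p., the PBS i.g., the amifostine or the CBLB502 arm was left out, and it passed without nilestriol. In the 2 vehicle arms alone, which carry no drug, miR-25-3p differed by 0.38 ± 0.08, miR-93-5p by 0.21 ± 0.07, miR-106b-5p by 0.19 ± 0.09 and miR-20b-5p by -0.32 ± 0.07. With 4 arrays none of them passed, as for all 362 miRNAs tested there (0% called by limma, 107 at an unadjusted p under 0.05).

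The 6 miR-17-92 members did not pass in either direction (5 below 0, 1 above). Of them, miR-17-5p, miR-20a-5p and miR-92a-3p share a seed with members of both clusters. The row shared by miR-17-5p and miR-106a-5p had levels of -2.13 to -1.57 at 8 Gy (median -2), against -2.21 to -1.48 at 0 Gy (median -1.75), and differed by -0.14 ± 0.12 (adjusted p = 0.434 with limma). miR-20a-5p, of the list the closest to the miR-20b-5p probes, differed by -0.03 ± 0.11, and miR-18a-5p by -0.15 ± 0.13. miR-92a-3p, the seed relative of miR-25-3p and miR-363-3p, differed by 0.04 ± 0.13. miR-19b-3p, at -0.39 ± 0.12, had the lowest adjusted p of the list (0.0767 with limma). Whether a member's difference exceeded that of a miR-17-92 member was not tested.

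**Figure D4:**
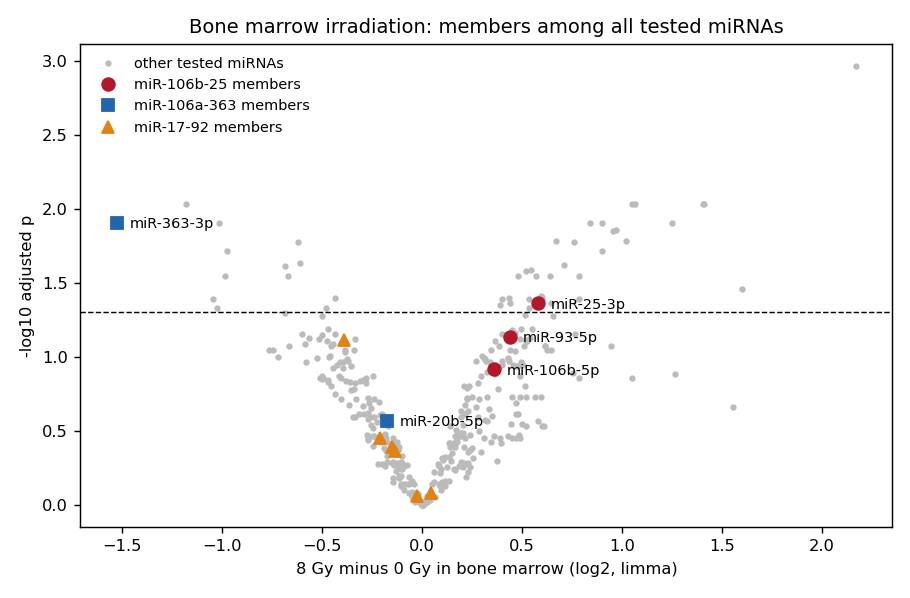
The 8 Gy minus 0 Gy difference in bone marrow (log2, x axis) against -log10 of the limma adjusted p (y axis) for the 371 miRNAs tested, with the members and the miR-17-92 cluster marked; the dashed line is an adjusted p of 0.05. miR-25-3p lies just above the line and all 6 miR-17-92 members lie below it; the place of miR-363-3p rests on 8 Gy values that were not detected and has no rank.

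Some markers of blood cell types moved with dose in the same arrays. Of the 7 measured blood and bone marrow markers, 3 were above 0 and 4 below. At 8 Gy 3 passed as higher and 1 as lower, against 9.16% and 3.5% of all 371 miRNAs tested. miR-142-3p and miR-142-5p did not pass (-0.03 ± 0.17 and -0.12 ± 0.18). The erythroid miRNAs miR-144-3p and miR-451a rose by 1.60 ± 0.34 and 1.4 ± 0.17 (adjusted p = 0.0348 and 0.00922 with limma), and their summed signal was 181.4 to 302 at 8 Gy and 45.2 to 119 at 0 Gy. The myeloid miR-223-3p rose by 0.54 ± 0.10. miR-181a-5p, high in lymphoid precursors, fell by 0.67 (± 0.13), and miR-150-5p of mature lymphocytes was at -0.60 ± 0.17 (adjusted p = 0.0703 with limma). The summed signal of all 7 markers was 245 to 375 at 8 Gy and 109 to 190 at 0 Gy. This sum is carried by the brightest, miR-451a (mean level 7.83 at 8 Gy and 6.42 at 0 Gy) and miR-223-3p (6.07 and 5.52). It does not show a rise of all 7. The erythroid sum is likewise carried by miR-451a, since miR-144-3p was dimmer (0.88 and -0.72). The part of cell composition in the members' differences was not tested.

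Over the 10 bone marrow arrays, levels of the miR-106b-25 members followed each other closely (Pearson r = 0.959 for miR-106b-5p and miR-93-5p, 0.974 for miR-93-5p and miR-25-3p, 0.935 for miR-106b-5p and miR-25-3p). miR-20b-5p followed them less (r = 0.359 to 0.417) and was closer to miR-20a-5p (0.933), the miR-17-5p row (0.900) and miR-18a-5p (0.892). Its probes differ from miR-20a-5p at 1 base, and miR-20a-5p was the brighter in bone marrow (median 1084 units, against 585). The part of miR-20a-5p in the miR-20b-5p signal was not tested. These values are descriptions over 10 arrays that share doses, slides and scaling. Among 292 other miRNAs detected on all 10 arrays, the most like in pattern were miR-148b-3p (r = 0.952), miR-200c-3p (0.951) and miR-107-3p (0.949) for miR-106b-5p. They were miR-140-5p (0.982), miR-210-3p (0.980) and miR-423-5p (0.970) for miR-93-5p. For miR-25-3p they were let-7i-5p (0.989), miR-210-3p (0.981) and let-7a-5p (0.976), and for miR-20b-5p miR-130b-3p (0.950), miR-374c-5p (0.946) and miR-378b (0.939).

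Because the 3 miR-106b-25 hairpins lie inside Mcm7, the RefSeq window around 1 of the 2 annotated Mcm7 starts is shown, 250 bases before to 50 after it (chr5:138171834-138172133, minus strand, GRCm38.p6). E2F-type motifs, searched on both strands as TTTCGCGC, TTTGGCGC, TTTCCCGC and TTTGCCGC, are in capitals:
Mcm7: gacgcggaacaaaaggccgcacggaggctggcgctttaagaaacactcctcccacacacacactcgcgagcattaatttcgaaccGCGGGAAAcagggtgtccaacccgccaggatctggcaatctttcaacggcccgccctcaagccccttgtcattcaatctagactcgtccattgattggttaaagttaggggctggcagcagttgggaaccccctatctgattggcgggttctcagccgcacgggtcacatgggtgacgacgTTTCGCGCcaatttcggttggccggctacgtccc
The window held 2 matches that did not overlap, 1 to TTTCGCGC and 1 to the reverse complement of TTTCCCGC. Of 32817 promoter windows, 0.323% held TTTCGCGC, 1.07% held TTTCCCGC and 2.26% held any of the 4. The window of the other Mcm7 start, and that of Kis2, the long noncoding RNA gene next to miR-106a-363, held 0 matches. A match describes the letters and does not show binding.

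In hypothalamus no difference between 8 Gy and 0 Gy was detectable for the members. With 2 arms, limma called 0% of 544 miRNAs, and 0 had an unadjusted p under 0.05. miR-106b-5p had levels of -1.33 and -1.21 at 8 Gy in the amifostine and PBS arms, against -0.87 and -1.13 at 0 Gy, and differed by -0.27 ± 0.21. miR-93-5p had -1.42 and -1.13 at 8 Gy, against -1.01 and -1.30 at 0 Gy (-0.12 ± 0.26). miR-25-3p had -1.78 and -1.38 at 8 Gy, against -1.32 and -1.71 at 0 Gy (-0.07 ± 0.32). miR-20b-5p had -2.93 and -2.78 at 8 Gy, against -2.50 and -2.70 at 0 Gy (-0.25 ± 0.21). For miR-25-3p and miR-93-5p the 2 arms moved in opposite directions, and the 95% intervals reached from -1.44 to 1.31 for miR-25-3p. The irradiation difference in bone marrow minus that in hypothalamus was 0.80 ± 0.38 for miR-106b-5p, 0.68 ± 0.49 for miR-25-3p, 0.66 ± 0.44 for miR-93-5p and 0.09 ± 0.35 for miR-20b-5p. None passed (adjusted p of 0.900 to 1 with limma), nor did any of the 530 miRNAs tested (0% called, 29 at an unadjusted p under 0.05).

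The last comparison asked whether the drugs changed the members. In the bone marrow fits the PBS i.p. and PBS i.g. arms served together as vehicle. None of the members passed for any drug in bone marrow; differences are given for the 4 detected on all arrays, since those of miR-363-3p mix detected and undetected values. CBLB502 minus PBS over both doses was -0.41 ± 0.19 for miR-106b-5p, -0.40 ± 0.18 for miR-93-5p and -0.34 ± 0.19 for miR-25-3p (adjusted p = 0.154, 0.144 and 0.233 with limma), where 12.1% of all 371 miRNAs passed, 5.39% as higher and 6.74% as lower. It was -0.16 ± 0.16 for miR-20b-5p. With only the PBS i.p. arm as vehicle, limma called 0 of 371 miRNAs for CBLB502. Nilestriol minus PBS was -0.64 ± 0.19 for miR-25-3p, -0.52 ± 0.18 for miR-93-5p, -0.39 ± 0.19 for miR-106b-5p and -0.41 ± 0.16 for miR-20b-5p. These 4 adjusted p values lay between 0.179 and 0.206, and limma called 0% of 371 miRNAs (95 at an unadjusted p under 0.05). For amifostine the 4 differences lay between -0.14 and 0.01, and limma called 0% (76 at an unadjusted p under 0.05).

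Set beside the PBS array of the same route and dose, 1 array against 1, the miR-106b-25 average was lower with each drug at 0 Gy. At 8 Gy it differed by 0.04 with amifostine, -0.53 with CBLB502 and -0.10 with nilestriol, and at 0 Gy by -0.46, -0.51 and -0.66. For CBLB502 the 2 doses gave like values, whereas for amifostine and nilestriol the drug array was close to its vehicle at 8 Gy. Over all miRNAs tested, the median difference at 0 Gy was 0.07 with amifostine, 0.10 with CBLB502 and -0.12 with nilestriol. At 8 Gy this median was -0.05, -0.04 and 0.11 in the same order. miR-363-3p had 12.7 units with nilestriol at 0 Gy, against 23.1 with PBS i.g. at 0 Gy. The amifostine and CBLB502 values share their PBS i.p. arrays, of which that at 0 Gy had the highest level of the 0 Gy arrays for each of the 5 members. The drug by irradiation differences, which ask whether the response to 8 Gy differed from that in PBS, did not pass for any member. Over the 4 members detected on all arrays they ran from 0.30 to 0.57 for amifostine, from -0.12 to 0.19 for CBLB502 and from 0.43 to 0.59 for nilestriol. The medians of all miRNAs tested were 0.036, 0.018 and 0.235. With no scaling, the median of the 5 tested members, miR-363-3p included, was -0.07 for amifostine, against 0.50 with the scaling used here. limma called 0% of 371 miRNAs for each, with 61, 38 and 85 at an unadjusted p under 0.05. Intervals were wide: for miR-25-3p the 95% interval was -0.45 to 1.46 with amifostine and -0.37 to 1.54 with nilestriol.

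**Figure D5:**
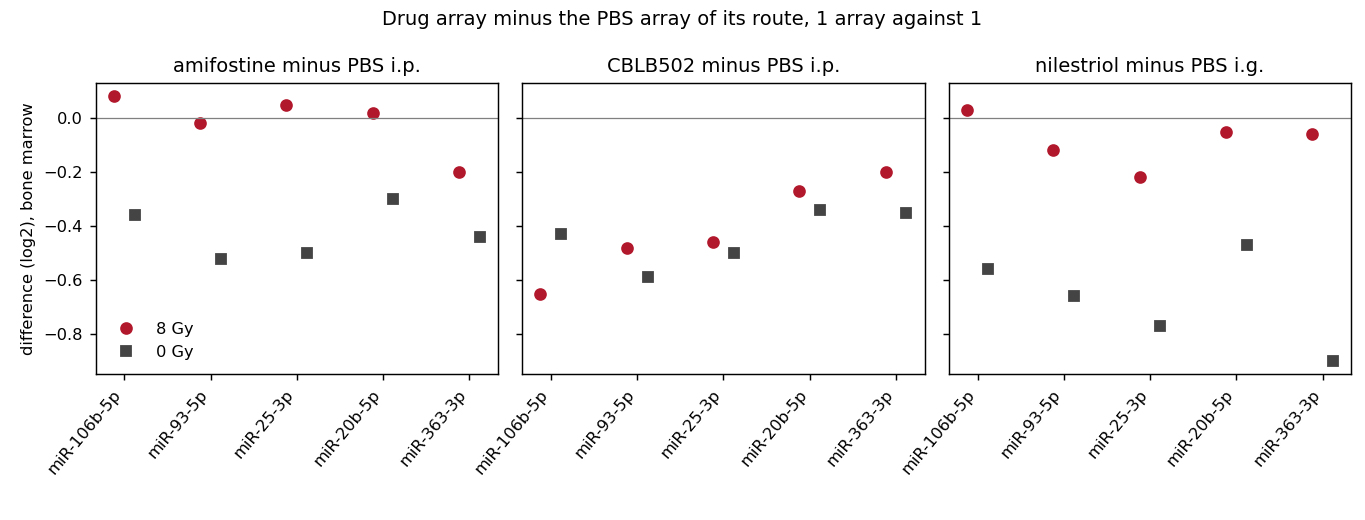
Drug minus the PBS array of the same route (log2, y axis) for the 5 detected members in bone marrow, at 8 Gy (circles, left) and 0 Gy (squares, right); each point is 1 array against 1. At 0 Gy the points of each drug lie below 0, and those of amifostine and CBLB502 share 1 PBS i.p. array. At 8 Gy those of CBLB502 lie below 0, and those of amifostine and nilestriol lie between -0.22 and 0.08. The members' points of a drug are not independent, and miR-363-3p was not detected at 8 Gy.

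In hypothalamus, amifostine minus PBS over both doses lay between -0.01 and 0.07 for the 4 tested members (median 0.01), and limma called 0% of 544 miRNAs (1 at an unadjusted p under 0.05). At 8 Gy the miR-106b-25 average was -0.27 relative to the PBS array and at 0 Gy it was 0.31, with the amifostine arrays on a slide of their own.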

How the data were processed

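The authors scanned each array with Agilent Feature Extraction 10.7.1.1, and the deposited files hold fluorescence intensity per spot; per the file headers a spatial background fit was subtracted. The authors' deposited table of log2 values has a scaling that is not given in the sources used here, and served as an alternative. Outlier spots were left out, spots averaged per probe and probes per miRNA. Each array was divided by its 75th percentile, taken over miRNAs that every array of the comparison detected. Values were raised to a floor, set at the 5th percentile of detected signals (median array), and log2 was taken. Detection was the scanner software's call, and a miRNA was tested if at least a share of 0.5 of the arrays detected it. limma 3.58.1 (R 4.3.3; lmFit, eBayes, two-sided, Benjamini-Hochberg over all tested miRNAs at 0.05) was run in 12 comparisons, with the arm as block for irradiation, condition for tissue and dose for drugs. For drugs and interactions in bone marrow, the PBS arms of both routes served together as vehicle. In the interactions, a drug's single array at each dose took its variance from the PBS arrays. The fit was tested on simulated data. Sequences and coordinates are from RefSeq (GRCm38.p6), handled with Python 3.11.15; figures were drawn with matplotlib 3.10.9. All members were named in each comparison, with the miR-17-92 list and the 3 most like miRNAs of each member. miR-486-5p, on the marker list, had no row of that name. Members and lists were chosen with earlier results of these data known. Alternatives varied background correction, scaling, floor, source of values, spots, probes, filter, arms, slides and block. The arms pair the doses by design. The number of arrays limits the precision.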

Additional observations from a re-analysis of the deposited data

How the results depend on the processing

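Of 983 values recomputed for 61 results, 877 kept their direction and their side of the threshold, or moved by less than the spread; the cause of the others was not tested. All 4 members kept their tissue call in each of 17 alternatives, and the miR-106b-25 average relative to miR-20b-5p stayed between 0.57 and 0.74 in 16. Alternatives that only change the scaling factor cannot move this relative value. For bone marrow irradiation, where 2 members passed, 1 passed with scaling over all miRNAs, quantile normalization, the authors' value table, the brightest probe, detection on all arrays, within slide 1 and with no replicate block (arms unpaired), 3 passed with no scaling, miR-93-5p among them, and 0 passed with the scanner software totals, with no filter on dim miRNAs and within slide 2; leaving out 1 arm gave 0 to 2. These counts include miR-363-3p, whose test rests on undetected 8 Gy values. In the vehicle arms, 1 (miR-363-3p) passed with the authors' value table or when an offset replaced the floor. For CBLB502, 1 passed with scaling over all miRNAs. For nilestriol, 1 passed with normexp, 3 with scaling over all miRNAs, and 0 to 2 with 1 array left out (2 without the 8 Gy nilestriol array). The miR-106b-25 average of 0.46 was 0.81 within slide 2, 0.24 with quantile normalization and 0.38 to 0.52 with 1 arm left out. The median of the 5 tested members, miR-363-3p included, ran from -0.34 to 0.10 for amifostine (-0.08 in the fit used here) and from -0.07 to 0.71 for amifostine by irradiation (0.50).

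Differences called in neither fit that changed sign were those of miR-20b-5p for irradiation within slide 2 (0.06); of miR-25-3p in hypothalamus with scaling over all miRNAs (0.02), quantile normalization (0.09), no scaling (0.04), the value table (0.15) and software totals (0.11); of miR-93-5p there with software totals (0.06); of miR-20b-5p between tissues by dose with normexp (-0.01), scaling over all miRNAs (-0.07), quantile normalization (-0.01), no scaling (-0.14), the value table (-0.16) and 1 array left out (-0.23 to 0.41); and of miR-363-3p for CBLB502 with 1 array left out (-0.13 to 0.12). The miR-106b-25 average against the vehicle array moved with quantile normalization (amifostine 0 Gy -0.12, CBLB502 8 Gy -0.16 and 0 Gy -0.15, nilestriol 0 Gy -0.35), no scaling (amifostine 0 Gy -0.08, CBLB502 0 Gy -0.20, nilestriol 8 Gy -0.41), the value table (amifostine 0 Gy -0.14, CBLB502 8 Gy -0.14 and 0 Gy -0.18), scaling over all miRNAs (nilestriol 8 Gy -0.45) and software totals (amifostine 8 Gy 0.34).

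Counts over the whole array depended on the setting: for irradiation in bone marrow 0 to 89 (47 as reported), for CBLB502 0 to 107 (45) and between tissues 160 to 382 (297). Of the comparisons with 0 calls, alternatives gave up to 93 for the vehicle arms, 95 for nilestriol, 13 for amifostine, 52, 39 and 41 for the nilestriol, amifostine and CBLB502 interactions, 9 for amifostine in hypothalamus and 71 for tissue by dose; irradiation in hypothalamus stayed at 0. The irradiation calls split into 34 higher and 13 lower, against 19 and 23 with quantile normalization, 21 and 13 with scaling over all miRNAs and 3 and 4 in the value table. With quantile normalization the median of all irradiation differences was -0.02, against 0.09 as reported. For CBLB502 the split was 20 and 25, against 7 and 42 with quantile normalization and 13 and 70 with scaling over all miRNAs; between tissues it was 84 and 213, against 242 and 134 with scaling over all miRNAs, 136 and 186 with quantile normalization, 43 and 263 with no scaling and 200 and 182 in the value table. Hypothalamus irradiation could not be fitted with an arm left out.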
